A study of Arabidopsis thaliana with 6 samples.

Results

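A set of 10 regulators of the shoot apical meristem and of the boundaries around it was followed in callus of Arabidopsis thaliana. They are known regulators matched by locus code, on a list drawn up with earlier results of these data known. They are the homeobox genes STM, KNAT1, KNAT2 and KNAT6, the NAC-domain boundary genes CUC1, CUC2 and CUC3, the receptor kinase gene CLV1 with its peptide ligand gene CLV3, and the AP2/ERF gene ESR2. All 10 members have a row among the 31305 loci measured. Callus had formed over 7 days on callus-inducing medium from hypocotyl pieces cut from 1-week-old seedlings. Bulk RNA sequencing covered 3 Col-0 (wild-type) libraries and 3 labelled rap2.12-2. Replicates are biological according to the series. The label rap2.12-2 names RAP2.12, an ethylene response factor of the oxygen-sensing group VII, and the nature of the allele is not given in the sources used here. The question put to these data is whether the members differ between the genotypes.

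The shoot apical meristem is kept in an undifferentiated state by class I KNOX homeodomain proteins, which raise cytokinin and lower gibberellin activity. A feedback loop between the stem cell peptide CLV3, its receptor kinases and the homeodomain factor WUSCHEL sets the number of stem cells. The CUC proteins hold back growth at organ boundaries, act upstream of STM in the embryo, and promote the formation of shoots from callus. Callus made on auxin-rich medium resembles a lateral root primordium, and shoot identity is usually brought in later, on medium rich in cytokinin.

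Values are TPM, which normalise to a fixed library total and divide by transcript length, so that levels of different genes within a library can be compared. Sequencing depth is unknown, because this unit does not retain it, and the spread between libraries served as the measure of precision. Col-0 replicate 1 stood apart, with listed values that summed to 845341 TPM, where the others summed to 984523 to 992724 TPM. Organelle genes took 12005.5 TPM in that library, against 157 to 537 TPM in the others. The values were tested as listed, without rescaling to a common sum. The rap2.12-2-labelled replicate 1 lay furthest out on the first principal component, at 69.2, where the other libraries lay between -44.8 and 4.63. RAP2.12 itself (AT1G53910) measured 123, 140 and 161 TPM in Col-0 against 360, 363 and 465 TPM in rap2.12-2-labelled libraries, so the transcript was higher under that label (log2 fold change 1.48, SE 0.17, limma adjusted p = 0.026). That call held without rap2.12-2-labelled replicate 1 and was lost on leaving out any other single library, with limma adjusted p-values of 0.053 to 0.22. The size of the difference moved little in those fits, with log2 values of 1.36 to 1.58. The label cannot therefore be read as a lower TPM of RAP2.12. A single value per locus does not show whether the RAP2.12 transcript under that label is intact. Differences are given below as the value under that label relative to Col-0.

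Markers of root-primordium-like callus were present in every library. Of 8 such markers, 7 averaged 1 TPM or more, and the list summed to 302 to 369 TPM in Col-0 against 273 to 366 TPM in rap2.12-2-labelled libraries. WOX5, a gene of the root stem cell niche, measured 26.7, 28.0 and 29.5 TPM in Col-0 against 26.6, 25.8 and 26.2 TPM in rap2.12-2-labelled libraries. It was the 1 of these 7 markers whose groups did not overlap, against 12.7% of all tested genes (log2 fold change -0.10, limma adjusted p = 0.91). PLT1, a root stem cell regulator, measured 85.0 to 131 TPM, whereas LBD29, a lateral root gene, measured 0 to 0.58 TPM. Signs of green shoot tissue were few: the Rubisco subunit gene RBCS1A measured 0.71 to 2.71 TPM, and SPCH, which starts the stomatal lineage, was listed at 0 in all 6 libraries. LHCB1.3, a light-harvesting gene, measured 7.46 to 23.5 TPM.

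The 10 members ranged from listed at 0 to well above the middle of the table. KNAT6 led with a mean of 47.7 ± 4.56 TPM (SD over 6 libraries), followed by CUC2 with 28.4 ± 3.01 TPM and KNAT1 with 14.9 ± 2.79 TPM. The ranges of these 3 genes did not overlap with each other, and the order KNAT6, CUC2, KNAT1 held in 6 of 6 libraries. CLV1 (2.61 ± 0.58 TPM), STM (2.31 ± 0.73 TPM), CUC1 (1.34 ± 0.75 TPM) and KNAT2 (0.84 ± 0.46 TPM) formed a lower group, in which neighbouring ranges overlapped. CLV1 was above STM in 3 of 6 libraries, so their order was not fixed, STM was above CUC1 in 6 of 6, and CUC1 was above KNAT2 in 5 of 6. CUC3, ESR2 and CLV3 lay at or next to 0. In rank among all loci, 86.3% had a lower mean than KNAT6, 77.5% a lower mean than CUC2, 45.3% a lower mean than STM and 29.1% a lower mean than CUC3, while 25.8% of loci were listed at 0 in every library.

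**Figure D1:**
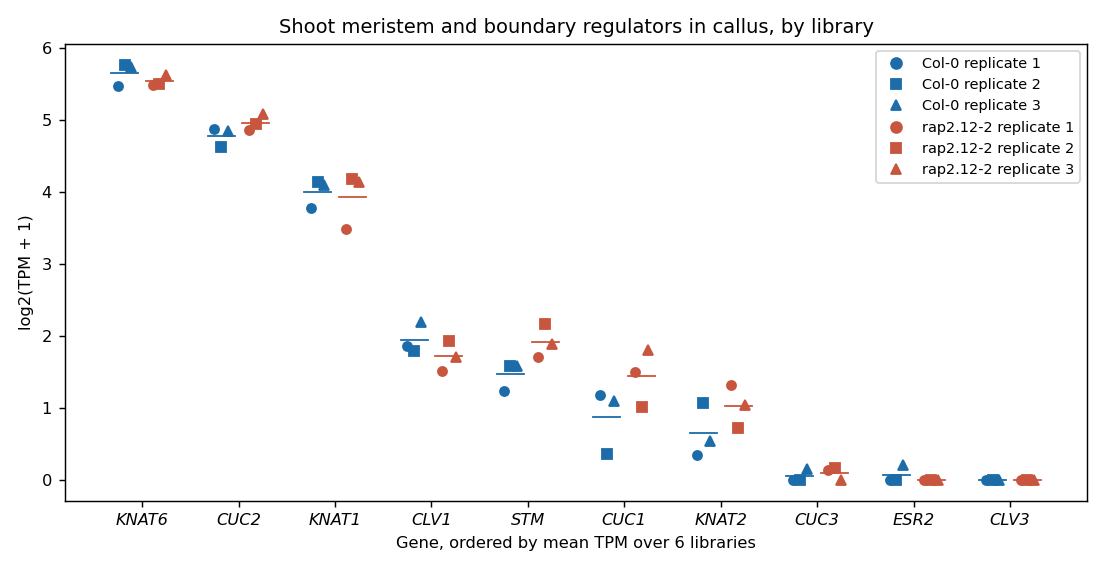
Level of each member in each library, as log2(TPM + 1), with genes ordered by mean TPM, Col-0 in blue and the libraries labelled rap2.12-2 in red, 1 symbol per replicate, and short lines at the group means. KNAT6, CUC2 and KNAT1 sit above the other 7 members in all 6 libraries, and CLV3 is at 0 throughout.

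None of the members passed the comparison between genotypes. The test required a mean of 1 TPM or more, which 6 members had, and 0 of these 6 had a limma adjusted p under 0.05, where 13 of 18629 tested genes did (0.0698%). At an unadjusted limma p under 0.05 the count was also 0 of 6, against 6.84% of all tested genes. Of the 6, 3 had positive and 3 negative log2 fold changes, and their median was 0.06 against -0.02 over all tested genes. On the values as listed, without rescaling, the groups did not overlap in 1 of the 6, STM, against 12.7% of all tested genes. KNAT2, CUC3, ESR2 and CLV3 were under the filter and are given by their values.

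Among the class I KNOX genes, KNAT6 supplied most of the transcript. KNAT6 (AT1G23380, chromosome 1, 8297241 to 8302651, minus strand, TAIR10.1), a boundary-expressed relative of STM, measured 43.4, 53.6 and 52.5 TPM in Col-0 against 43.8, 44.3 and 48.6 TPM in rap2.12-2-labelled libraries. The groups overlapped, with a log2 fold change of -0.12 (SE 0.15, 95% interval -0.47 to 0.22, limma adjusted p = 0.89). Leaving out single libraries gave -0.22 (without Col-0 replicate 1) to -0.07 (without Col-0 replicate 2). Its share of the summed class I KNOX transcript was 74.0 ± 1.06% in Col-0 and 71.3 ± 4.15% in rap2.12-2-labelled libraries (SD, n = 3 each).

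KNAT1 (AT4G08150, chromosome 4, 5147699 to 5151159, minus strand), also called BREVIPEDICELLUS and known for its role in stem and pedicel growth, was the next of the family. It measured 12.7, 16.6 and 16.2 TPM in Col-0 against 10.3, 17.1 and 16.6 TPM in rap2.12-2-labelled libraries. In both groups replicate 1 was the lowest library, and the groups overlapped (log2 fold change -0.07, SE 0.23, 95% interval -0.60 to 0.46, limma adjusted p = 0.96). Without rap2.12-2-labelled replicate 1 the sign turned, to 0.15, and it also turned with quantile normalization. KNAT1 held 22.5 ± 0.39% of the family's transcript in Col-0 and 22.6 ± 4.37% in rap2.12-2-labelled libraries (SD, n = 3 each).

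STM (AT1G62360, chromosome 1, 23058582 to 23062063, minus strand), the founding meristem gene of the family, was low in all libraries but ordered by genotype. It measured 1.35, 2.01 and 2.01 TPM in Col-0 against 2.27, 3.5 and 2.7 TPM in rap2.12-2-labelled libraries, so each of the latter was above each Col-0 library. Mean levels were 1.79 ± 0.38 and 2.82 ± 0.62 TPM (SD, n = 3 each), 1.58 times as high. The difference did not pass the test (log2 fold change 0.45, SE 0.27, 95% interval -0.15 to 1.05, limma adjusted p = 0.84). Across the alternatives tried its log2 fold change stayed between 0.33 and 0.63 with a limma adjusted p between 0.49 and 0.97. STM held 2.63 ± 0.26% of the class I KNOX transcript in Col-0 and 4.39 ± 0.82% in rap2.12-2-labelled libraries (SD, n = 3 each).

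Bulk RNA cannot tell a larger number of STM-expressing cells from more STM RNA per cell. Markers of 2 other cell types were set beside the STM values. The list of 3 xylem vessel markers summed to 140 to 174 TPM in Col-0 against 223 to 236 TPM in rap2.12-2-labelled libraries. The vessel protease genes XCP1 and XCP2 carried this sum and had groups that did not overlap. Their log2 fold changes were 0.50 and 0.56 (limma unadjusted p = 0.009 and 0.0052, adjusted p = 0.46 and 0.39). The vessel regulator VND7, at 4.81 to 6.89 TPM, had overlapping groups and a log2 fold change of -0.09. The 2 shoot epidermis markers lay the other way, with overlapping sums of 18.2 to 27.2 TPM in Col-0 against 7.67 to 20.7 TPM in rap2.12-2-labelled libraries. Of these, the epidermal protein gene PDF1 averaged 20.5 ± 4.83 TPM in Col-0 against 11.8 ± 6.28 TPM in rap2.12-2-labelled libraries (SD, n = 3 each, log2 fold change -0.83, limma unadjusted p = 0.034, adjusted p = 0.66), and ATML1, an epidermal homeobox gene, had a log2 fold change of -0.25 (limma adjusted p = 0.90). The part of xylem or epidermal cells in the STM values was not tested. STM lies 2.92 Mb from RAP2.12 on chromosome 1, and 6 of the 10 members are on that chromosome.

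KNAT2 (AT1G70510, chromosome 1, 26576486 to 26582879, plus strand), the closest relative of KNAT6, was the lowest of the family. It measured 0.27, 1.1 and 0.45 TPM in Col-0 against 1.5, 0.65 and 1.05 TPM in rap2.12-2-labelled libraries. The groups overlapped, since Col-0 replicate 2 was above 2 of the libraries with the other label. With no filter on low values it had a log2 fold change of 0.38 (SE 0.24, limma adjusted p = 0.87). The coding sequences of KNAT6 and KNAT2 are 73.5% identical, so shared reads could in principle be split between them. Their longest identical stretch is 41 bases of coding sequence, shown here because a read within it would match both genes equally. It lies at chr1:8297575-8297615 on the minus strand in KNAT6 and at chr1:26582032-26582072 on the plus strand in KNAT2 (TAIR10.1, RefSeq).
KNAT6 and KNAT2, shared stretch: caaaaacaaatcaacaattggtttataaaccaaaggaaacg
The read length is not given in the sources used here. Over the coding sequence STM is 55.9% identical to KNAT1 and 52.1% to KNAT6, with longest identical stretches of 20 and 15 bases. No member has a stretch of 100 or more bases at 95% identity or higher elsewhere in the nuclear genome. No annotated gene overlaps any member.

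**Figure D2:**
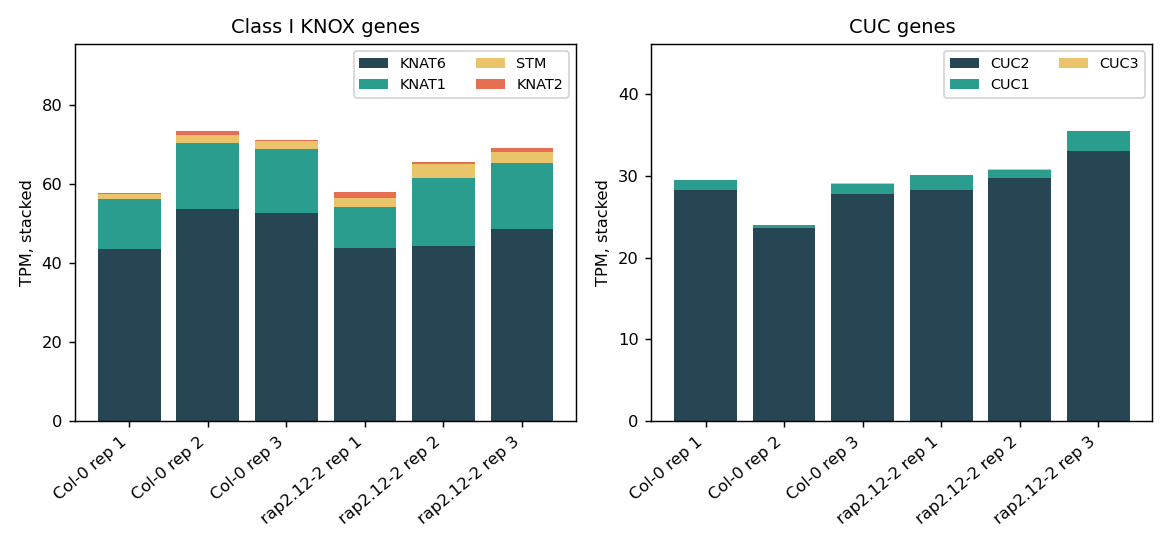
TPM of the 4 class I KNOX genes (left) and the 3 CUC genes (right), stacked for each of the 6 libraries on axes that start at 0. KNAT6 makes up 67.6% to 75.7% of the class I KNOX sum and CUC2 makes up 92.9% to 98.8% of the CUC sum in every library.

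Ratios between members were also compared within each library. Because 1 TPM is added to each value, the ratios of members near 1 TPM are narrowed and still move with the library total. The log2 ratio of STM to KNAT1, on the TPM + 1 scale, was -2.55, -2.55 and -2.51 in Col-0 against -1.78, -2.01 and -2.25 in rap2.12-2-labelled libraries. All of the rap2.12-2-labelled libraries lay above all Col-0 libraries, with a mean difference of 0.52. Without rap2.12-2-labelled replicate 1, in which KNAT1 was lowest at 10.3 TPM, that difference was 0.40. With no pseudocount the ratio was -3.24, -3.05 and -3.01 in Col-0 against -2.17, -2.29 and -2.62 in rap2.12-2-labelled libraries, with SDs of 0.12 and 0.23 (n = 3 each) and a mean difference of 0.73. The narrow spread of the Col-0 libraries on the TPM + 1 scale (SD 0.021) was thus set by the pseudocount. By exact permutation (two-sided) p was 0.10 on either scale, which is the lowest value possible with 3 against 3 libraries, and on the TPM + 1 scale 0.40 after adjustment over the 4 ratios compared. KNAT6 to KNAT2 was 5.01 ± 0.27 in Col-0 and 4.51 ± 0.32 in rap2.12-2-labelled libraries (SD, n = 3 each, exact permutation p = 0.20, adjusted 0.40), with overlapping groups. Its difference of -0.50 became -0.96 with a pseudocount of 0.1 TPM.

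**Figure D3:**
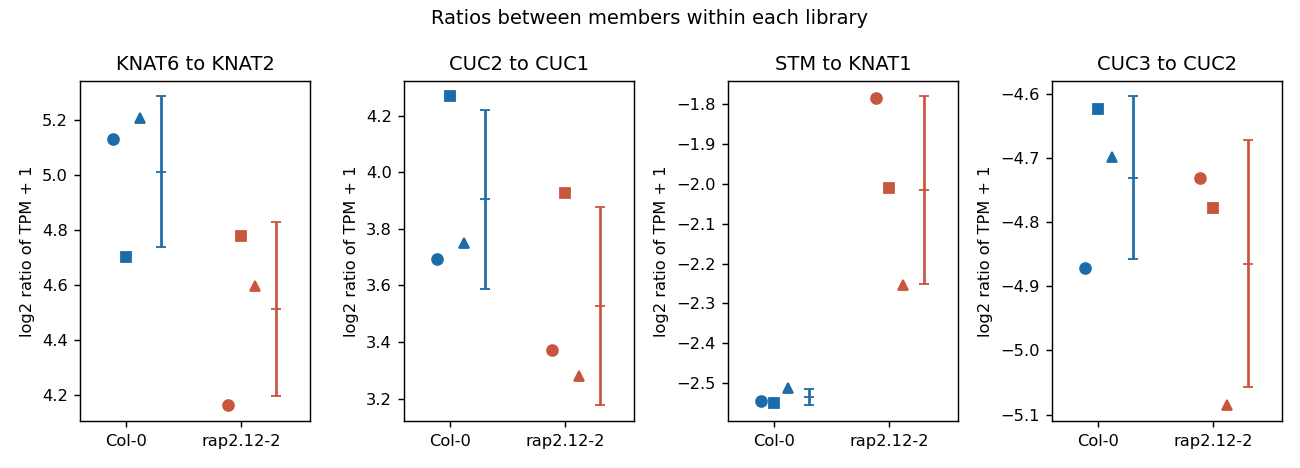
Within-library log2 ratios of TPM + 1 for 4 pairs of members, 1 point per library, with group means and SD (n = 3 each) beside the points; each panel has its own vertical axis, which does not start at 0. On this scale the Col-0 points for STM to KNAT1 sit together near -2.54 and the 3 points labelled rap2.12-2 sit higher and apart, while the groups overlap in the other panels.

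The CUC family was represented almost wholly by CUC2. CUC2 (AT5G53950, chromosome 5, 21901704 to 21903854, minus strand) measured 28.3, 23.7 and 27.8 TPM in Col-0 against 28.2, 29.7 and 33.0 TPM in rap2.12-2-labelled libraries. The groups overlapped, as Col-0 replicate 1 was just above the lowest library of the other label (log2 fold change 0.18, SE 0.16, 95% interval -0.18 to 0.54, limma adjusted p = 0.87). Col-0 replicate 1 is also the library with the low sum, and these values are as listed. Without Col-0 replicate 2 the log2 fold change was 0.11. It was also 0.11 with organelle genes removed and each library rescaled (SE 0.16, limma adjusted p = 0.80). CUC2 held 96.8 ± 1.80% of the CUC transcript in Col-0 and 94.3 ± 1.77% in rap2.12-2-labelled libraries (SD, n = 3 each).

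CUC1 (AT3G15170, chromosome 3, 5109782 to 5111608, plus strand), which acts redundantly with CUC2 in separating the cotyledons, was far lower. It measured 1.26, 0.28 and 1.14 TPM in Col-0 against 1.82, 1.02 and 2.50 TPM in rap2.12-2-labelled libraries. The mean was 1.99 times as high under the latter label, but the groups overlapped and the spread within each was wide (log2 fold change 0.56, SE 0.36, 95% interval -0.25 to 1.37, limma adjusted p = 0.85). The value depended on the lowest library: without Col-0 replicate 2 the log2 fold change was 0.30, and a pseudocount of 0.1 TPM gave 1.04. CUC2 to CUC1 within libraries was 3.90 ± 0.32 in Col-0 and 3.53 ± 0.35 in rap2.12-2-labelled libraries on the log2 scale (SD, n = 3 each, exact permutation p = 0.30, adjusted 0.40), a difference of -0.38 that became -0.85 with a pseudocount of 0.1 TPM.

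CUC3 (AT1G76420, chromosome 1, 28671806 to 28674045, minus strand), the third boundary NAC gene, was listed at 0 in 3 of 6 libraries and at 0.10 to 0.12 TPM in the others. The nonzero values came from 1 Col-0 library and 2 libraries labelled rap2.12-2, so the groups overlapped. The log2 ratio of CUC3 to CUC2 was -4.73 ± 0.13 in Col-0 and -4.86 ± 0.19 in rap2.12-2-labelled libraries (SD, n = 3 each, exact permutation p = 0.40, adjusted 0.40). That difference of -0.13 turned to 0.17 with a pseudocount of 0.1 TPM, and at these levels the pseudocount sets the ratio.

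CUC1 and CUC2 share a target site of the microRNA miR164, which cleaves their transcripts and restricts boundary size, and CUC3 is known to lack one. The mature microRNA encoded at MIR164A (chr2:19520770-19520790, plus strand) and MIR164B (chr5:287586-287606, plus strand) has one sequence, and that of MIR164C (chr5:9852684-9852704, plus strand) differs from it at the last base. They are shown from RefSeq TAIR10.1 as DNA letters with the seed, bases 2 to 8, in capitals, followed by the sites in CUC1 (chr3:5111137-5111157, plus strand) and CUC2 (chr5:21902301-21902321, minus strand), in which capitals mark bases that differ from a perfect complement of miR164a.
miR164a and miR164b: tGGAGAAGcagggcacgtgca
miR164c: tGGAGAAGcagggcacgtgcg
CUC1 site: AgcacgtgTcctgTttctcca
CUC2 site: AgcacgtgTcctgTttctcca
Both sites lie in coding sequence, are identical, and differ from the perfect complement at 3 of 21 positions. The longest identical stretch between the CUC1 and CUC2 transcripts, 22 bases, is this site with 1 more base, while their coding sequences are 56.5% identical as a whole.
CUC1 and CUC2, shared stretch: gagcacgtgtcctgtttctcca
In CUC3 the best match differs at 9 of 21 positions. A sense-strand search covered 1 spliced transcript for each of 31346 nuclear loci with an annotated mRNA. It found a match with at most 3 differences, counting G:U pairs as differences, in 6 loci, or 0.0191%.

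The other loci with such a match were also lower than CUC2, as were 77.5% of all loci by mean. NAC1, an auxin-induced lateral root factor, measured 2.19 to 3.91 TPM, NAC080 4.55 to 8.17 TPM, AT3G12977 1.3 to 3.14 TPM and NAC100 0.44 to 0.90 TPM over the 6 libraries. CUC2 and CUC1 carried the same site at means of 28.4 and 1.34 TPM, and the part of miR164 in that difference was not tested. The MIR164 genes themselves were not analysed here.

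CLV1 (AT1G75820, chromosome 1, 28463344 to 28466971, minus strand), the leucine-rich repeat receptor kinase of the CLAVATA pathway, was present at a low level. It measured 2.63, 2.46 and 3.58 TPM in Col-0 against 1.86, 2.82 and 2.28 TPM in rap2.12-2-labelled libraries. The groups overlapped (log2 fold change -0.23, SE 0.26, 95% interval -0.81 to 0.36, limma adjusted p = 0.89). The log2 fold change was -0.10 without Col-0 replicate 3 and -0.13 without rap2.12-2-labelled replicate 1. CLV3 (AT2G27250, chromosome 2, 11664978 to 11665797, minus strand), which encodes the stem cell peptide, was listed at 0 in all 6 libraries. WUS, the homeodomain factor that CLV3 signalling restrains, was listed at 0.14 TPM in Col-0 replicate 1 and at 0 in the other 5 libraries.

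ESR2 (AT1G24590, chromosome 1, 8714365 to 8715378, minus strand; DRNL in the reference), an AP2/ERF factor that promotes shoot regeneration and activates CUC1, was listed at 0.16 TPM in Col-0 replicate 3 and at 0 in the other 5 libraries. Its relative ESR1, which also promotes shoot regeneration, measured 1.52, 1.65 and 0.63 TPM in Col-0 against 0.48, 1.00 and 0.94 TPM in rap2.12-2-labelled libraries, with overlapping groups (log2 fold change -0.31, limma adjusted p = 0.88). The longest identical stretch between ESR2 and ESR1 is 23 bases.

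Partner genes of the pathway were listed as 63 loci in 6 lists, of which 60 were analysed here and 45 averaged 1 TPM or more and were tested in the same fit. None of the 45 passed at a limma adjusted p under 0.05. At an unadjusted p under 0.05 there were 1 gene higher, AS2, where 3.22% of all tested genes were, and 1 lower, ATHB-15, where 3.62% were. The groups did not overlap in 3 of the 45 tested list genes, against 12.7% of all tested genes. These were AS2, ATHB-15 and RAP2.6L, the last of which was named after its values were seen.

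AS2 (AT1G65620) encodes a LOB-domain protein that, together with the MYB protein AS1, silences KNAT1, KNAT2 and KNAT6 in leaves. It measured 7.46, 15.3 and 10.4 TPM in Col-0 against 16.9, 25.8 and 18.4 TPM in rap2.12-2-labelled libraries, so the groups did not overlap. Mean levels were 11.1 ± 3.96 and 20.4 ± 4.75 TPM (SD, n = 3 each), with a log2 fold change of 0.85 (SE 0.27, limma unadjusted p = 0.012, adjusted p = 0.49). AS1 (AT2G37630) was even across the libraries, at 19.2, 17.3 and 21.3 TPM in Col-0 against 16.6, 19.3 and 20.6 TPM in rap2.12-2-labelled libraries.

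The list of KNOX repressors and hormone genes downstream of KNOX mixes upstream and downstream genes, so its signs have no single meaning. Of its 5 tested genes, 1 was positive and 4 were negative (median log2 fold change -0.23). That median ranged from -0.44 without Col-0 replicate 1 to -0.07 without Col-0 replicate 3, and was -0.10 without Col-0 replicate 2 or without rap2.12-2-labelled replicate 3. GA2OX2, which encodes a gibberellin-inactivating enzyme, measured 35.8, 44.2 and 28.9 TPM in Col-0 against 15.9, 28.1 and 30.0 TPM in rap2.12-2-labelled libraries (log2 fold change -0.57, limma adjusted p = 0.76). Without rap2.12-2-labelled replicate 1, its lowest library, the log2 fold change was -0.29. IPT7, a cytokinin synthesis gene that responds to STM, was listed at 0 in 3 libraries and at 0.11 to 0.19 TPM in the others. Among 9 tested KNOX and BELL relatives, 1 was positive and 8 were negative (median -0.26), with KNAT5 at -0.26, KNAT3 at -0.30 and BLH1 at -0.53. Without rap2.12-2-labelled replicate 1 the median of that list was -0.05, and BLH1, which encodes a BELL homeodomain protein, was at -0.01.

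Boundary factors other than the CUC genes were close to even, with 2 of 5 positive and a median log2 fold change of -0.03. LSH3, a boundary gene activated by CUC1, measured 52.8, 45.8 and 55.3 TPM in Col-0 against 50.8, 48.6 and 51.04 TPM in rap2.12-2-labelled libraries, above all 10 members in mean. BOP2, which encodes a BTB-ankyrin protein of organ bases, measured 3.98 to 8.67 TPM and the LOB-domain gene LBD30 measured 3.73 to 6.60 TPM (log2 fold changes -0.08 and 0.21). BOP1 and LOB were listed at 0 in all 6 libraries. Of the TCP factors that hold back CUC expression, 4 were tested and 2 had a positive log2 fold change (median -0.02). TCP24 measured 13.3 to 23.5 TPM, TCP2 4.43 to 9.83 TPM and TCP3 2.16 to 9.42 TPM, all with overlapping groups. Without rap2.12-2-labelled replicate 1 the medians of the boundary and TCP lists were 0.20 and 0.19.

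The 15 tested genes of the CLAVATA pathway beside CLV1 all had higher means than CLV1. BAM1, which encodes a receptor kinase closely related to CLV1, measured 124, 139 and 169 TPM in Col-0 against 99.1, 176 and 153 TPM in rap2.12-2-labelled libraries. BAM3, of the same family, measured 55.1, 48.5 and 62.5 TPM in Col-0 against 32.4, 54.6 and 56.8 TPM in the other group. AT2G23950, a listed locus with no symbol in the reference, measured 39.5 to 68.5 TPM, and the phosphatase gene PLL1 14.9 to 30.5 TPM (log2 fold changes -0.24 and -0.37). CLE40, a relative of CLV3, was listed at 0 in all 6 libraries. Of these 15 genes, 3 were positive and 12 negative (median log2 fold change -0.14). This direction rested on a single library: without rap2.12-2-labelled replicate 1, 12 were positive and 3 negative, with a median of 0.05.

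The 7 ESR2 relatives and HD-ZIP III factors, the latter of which set the upper side of organs and pattern vascular tissue, all had negative log2 fold changes (median -0.31). ATHB-15 (AT1G52150) measured 162, 165 and 205 TPM in Col-0 against 81.6, 145 and 147 TPM in rap2.12-2-labelled libraries, with groups that did not overlap (log2 fold change -0.55, SE 0.24, limma unadjusted p = 0.047, adjusted p = 0.72). ATHB-15 lies 0.72 Mb from RAP2.12, and AS2 lies 4.26 Mb from it. Of listed genes nearer to RAP2.12, TCP3 (0.28 Mb) and the boundary gene LAS (0.63 Mb) had overlapping groups. Their log2 fold changes were 0.17 and -0.03. RAP2.6L, an AP2/ERF gene of shoot regeneration, measured 132, 107 and 117 TPM in Col-0 against 68.8, 102 and 104 TPM in the other group (log2 fold change -0.39, limma adjusted p = 0.79). The log2 fold changes of PHB and ATHB-8 were -0.11 and -0.41, both with overlapping groups. Here too the lowest value of each of these 4 genes was that of rap2.12-2-labelled replicate 1. Without it, 2 of the 7 were positive, the median was -0.04 and ATHB-15 was at -0.27.

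**Figure D4:**
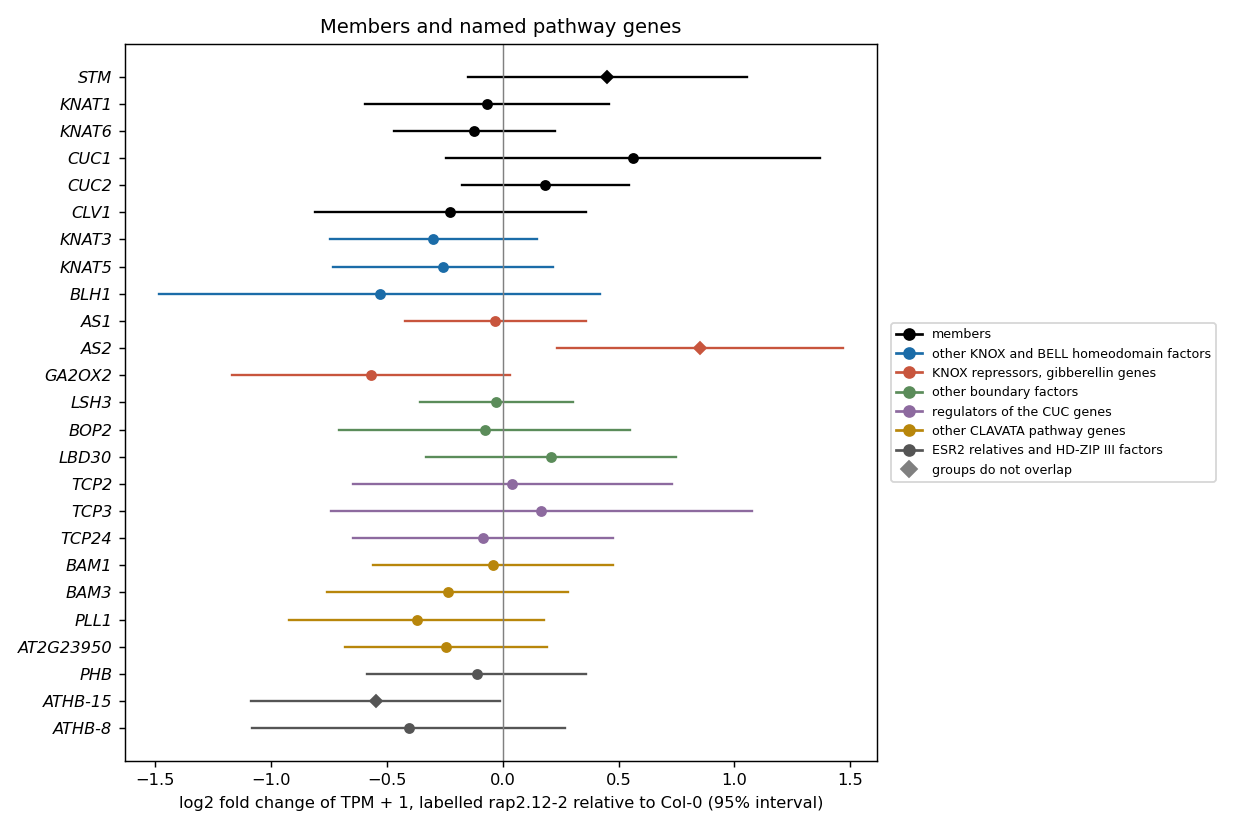
Log2 fold change on the log2(TPM + 1) scale, rap2.12-2 label relative to Col-0, with 95% intervals from limma, for the 6 tested members (black) and the named pathway genes (coloured by list), with diamonds where the groups do not overlap. The intervals of all 6 members include 0, and those of AS2 and ATHB-15 do not before adjustment.

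**Figure D5:**
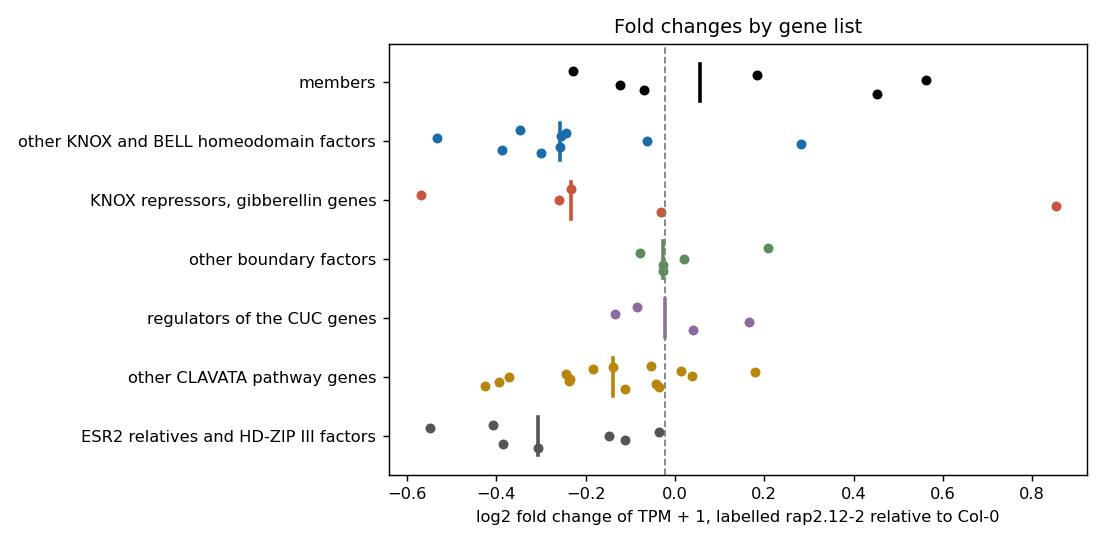
Log2 fold changes of all tested genes in each list, 1 point per gene, with a bar at the list median and a dashed line at the median of all tested genes (-0.02). The members spread to both sides of 0 (median 0.06), and the 7 ESR2 relatives and HD-ZIP III factors lie below 0 (median -0.31).

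For each tested member, the gene with the most similar pattern over the 6 libraries was found from standardised log2 values. The nearest to STM was UXS5, a UDP-xylose synthase gene at a mean of 138 TPM, with a root mean square difference of 0.054 SD, and 86 of 15342 genes lay within 0.3 SD. The nearest to KNAT1 was TOP1ALPHA, a DNA topoisomerase gene, at 0.027 SD, and 989 of 15341 genes lay within 0.3 SD. ALMT9, which encodes an anion channel, was nearest to KNAT6 (0.12 SD, 37 genes within 0.3 SD). CUC2 was matched by AT4G02630 (0.14 SD, 6 genes), CUC1 by AT1G20691 (0.19 SD, 9 genes) and CLV1 by AT4G31110 (0.13 SD, 22 genes). With so few libraries and so many genes, close matches of this kind are common, and they describe these libraries alone.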

How the data were processed

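Total RNA was extracted with TransZol Up and made into TruSeq libraries, per the labels' protocols. The authors deposited 1 table of TPM for 31305 loci in 6 libraries. STAR 2.7.10a, RSEM 1.3.1 and the TAIR10 build are named, without their roles, per the submitters' processing notes. Strand use and filters are not given in the sources used here. Loci matched the RefSeq TAIR10.1 annotation in 31217 cases and did not in 88, and coordinates and sequences come from it.

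The 18629 genes that averaged 1 TPM or more were tested on log2(TPM + 1) with limma 3.58.1 (R 4.3.3, moderated two-sided test, mean-variance trend) and Benjamini-Hochberg adjustment over all of them, at 0.05. Fold changes on this scale understate those of low genes, and ratios are of mean TPM. Ratios within libraries used exact permutation tests. Sequence matches used Biopython 1.88 and BLAST 2.17.0. Members and lists were chosen with earlier results of these data known. Named list genes are those called or, failing that, the 3 of highest mean and the 1 of smallest p. ESR1, IPT7, WUS, CLE40, BOP1 and LOB were named as near 0 or as relatives. LAS, chosen for its distance from RAP2.12, the genes with a miR164 match and RAP2.6L were named after their values were seen. Pattern matches needed an average of 5 TPM. Alternatives were other pseudocounts, filters and scalings, removal of organelle genes, no variance trend, the replicate number as a block, and leaving out libraries. Medians of lists without single libraries and the ratio of STM to KNAT1 with no pseudocount were added after the data were seen.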

Additional observations from a re-analysis of the deposited data

How the results depend on the processing

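The number of members called was 0 in all 16 alternatives. Over all genes, 8 higher and 5 lower calls became 3 and 3 with no filter, 2 and 2 with the replicate number as a block, 2 and 3 with no variance trend, and 0 and 0 without both replicates 1, while median-of-ratios scaling gave 3 higher. Leaving out single libraries gave 2 to 19 higher and 2 to 6 lower. Col-0 replicate 2 gave the most higher calls when left out (19, with 2 lower), and dropping Col-0 replicate 3 left 2 each way. Dropping either Col-0 replicate 1 or rap2.12-2-labelled replicate 2 left 3 each way, and dropping rap2.12-2-labelled replicate 3 left 5 higher. The RAP2.12 call was lost in 9 alternatives.

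The titles of the libraries number the replicates and name no pairing, so whether same-numbered libraries were paired is unknown. Their deviations from the group means correlated at 0.197, 0.349 and -0.114, and not every library correlated best with its own number. With 3 libraries in each group these correlations cannot settle the question. Using the replicate number as a block left the number of members called at 0.

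Signs of small log2 fold changes turned in these cases. Quantile normalization gave 0.0052 for KNAT1 and 0.029 for AS1, and removal of organelle genes gave -0.025 for TCP2. Without both replicates 1 the values were 0.039 for KNAT1, 0.052 for AS1, 0.28 for BOP2, 0.097 for BAM1 and 0.016 for BAM3. Over the fits without a single library the ranges were -0.19 to 0.15 for KNAT1, -0.10 to 0.053 for AS1, -0.11 to 0.027 for LSH3, -0.27 to 0.20 for BOP2, -0.29 to 0.098 for TCP24, -0.24 to 0.25 for TCP2, -0.25 to 0.61 for TCP3, -0.21 to 0.20 for BAM1, -0.38 to 0.016 for BAM3 and -0.24 to 0.080 for PHB. The difference in the ratio of CUC3 to CUC2 was 0.17 with a pseudocount of 0.1. The cause of these turns was not tested. STM, KNAT6, CUC1, CUC2 and CLV1 kept their sign in every alternative that gave a value. Removal of organelle genes, with each library rescaled, moved KNAT6 to -0.20 and CUC2 to 0.11. With that setting the median over all tested genes went from -0.02 to -0.10. TPM keeps no depth, so values under 1 TPM have unknown counting error.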
